A study of Schizosaccharomyces pombe with 8 samples.

Results

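The genes described here are the nuclear genes for the mitochondrial respiratory chain and ATP synthase of the fission yeast Schizosaccharomyces pombe. They were chosen by name: every nuclear gene whose standard symbol is sdh, qcr, cox or atp with a number, together with rip1, cyt1, cyc1, nde1 and coa2. The rule took 54 of the 5165 genes in the deposited table. Of these, 33 encode structural subunits (3 of complex II, 9 of complex III, 8 of complex IV and 13 of ATP synthase) and 18 encode assembly factors (3 for complex II, 10 for complex IV and 5 for ATP synthase). The other 3 are cyc1, nde1 and cox24. The symbol cox24 belongs to a mitochondrial ribosomal protein in the reference annotation, and qcr1 is annotated as the beta subunit of the mitochondrial processing peptidase, which in some fungi doubles as a core protein of complex III. Genes listed under other symbols, such as tim18 and etp1, which carry sdh4 and cox15 as synonyms, fall outside the rule.

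The respiratory chain passes electrons from metabolic donors to oxygen and pumps protons across the inner mitochondrial membrane, and ATP synthase uses the returning protons to make ATP. Fission yeast has no proton-pumping complex I, so NADH is oxidised by single-protein dehydrogenases such as Nde1, while complex II oxidises succinate, complex III passes electrons from ubiquinol to cytochrome c, and complex IV reduces oxygen. A few catalytic subunits are made from the mitochondrial genome, the rest are imported, and assembly factors insert haem and copper, stabilise new subunits or join them without staying in the finished complex.

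Poly(A) RNA was sequenced from wild-type cells (strain 972) and from a pgr1 mutant, pgr1 being the gene for glutathione reductase. Each strain was grown at 30 °C in YE5S, a rich yeast extract medium, to an OD600 of 0.5, and was either left untreated or exposed to 1 mM hydrogen peroxide (H2O2) for 30 min, giving 4 groups of 2 libraries. The labels name 1 mutant strain, with no allele, and leave unsaid whether the replicates of a group are separate cultures, so each p-value speaks only of the scatter among these libraries, part or all of which may be technical. Levels are the authors' DESeq2-normalized counts, that is, read counts divided by a size factor of the library. Differences are log2 fold changes ± SE on log2(normalized count + 1) from a limma fit across all genes, and a gene was called at a Benjamini-Hochberg adjusted p below 0.05. As this is bulk RNA, fewer cells expressing a gene and less RNA per cell cannot be told apart.

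The libraries held between 12026222 and 14125543 recovered reads. All 54 genes passed the filter on low values, and the lowest had 42 reads in a library. Normalized counts of pgr1 itself were 4939 and 4805 in the untreated wild-type libraries and 159 and 91.4 in the untreated mutant, a difference of -5.32 ± 0.21, and the difference after H2O2 was -6.13 ± 0.21. The 2 wild-type replicates stood apart on the iron transport gene fip1, with 1032 and 2608 normalized counts untreated and 1115 and 3347 after H2O2. In the mutant fip1 had 9033 and 11306.5 untreated, above every other library, and 853 and 1005 after H2O2. Of the 13 markers of sexual differentiation and starvation, 11 were tested. In the untreated mutant 5 were called higher, against 22.8% of all genes, and the lowest was map2 at -0.36 ± 0.25, not called. The summed level of all 13 was 3189 and 3201 in the untreated wild-type libraries against 7151 and 7459.7 in the untreated mutant. It was 9662 and 9634 in the treated wild-type libraries and 11116 and 11691 in the treated mutant. After H2O2 in wild type 4 of the 11 were called higher and 6 lower, against 37.7% and 34.6% of all genes. Their median was -0.85, from -3.02 for ste11 to 5.60 for inv1. In the mutant 4 were higher and 6 lower after H2O2, with a median of -0.54, against 35.7% and 32.5% of all genes. Without the protease gene isp6 the sums were 2119.5 and 2007 against 2799 and 2607 when untreated, and 4398 and 3428 against 3243 and 3341 after H2O2, where the treated mutant no longer lay above treated wild type. A large part of these treated sums was inv1, with 2538 and 1427 in wild type and 1290 and 1308 in the mutant. The pheromone gene mfm1, one of these markers, was at 0 in 1 library of each treated group. The part of fip1 and of these markers in the results below was not tested.

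In untreated wild type the structural genes were expressed well above the assembly genes. Per kilobase of annotated exon, the 33 structural genes ranged from 755 normalized counts for cox7 to 10323 for atp2, which encodes the catalytic beta subunit of ATP synthase, with a median of 3149. The 18 assembly genes ranged from 104 for atp10 to 1945 for coa2, with a median of 452. The ranges met only where the assembly genes cox17, at 871, and coa2 exceeded the lowest structural genes, and the annotated exon of coa2 begins at its coding start. The structural genes together took 1.09% of normalized counts in each untreated wild-type library and 1.11% and 1.07% after H2O2, but only 0.465% and 0.460% in the mutant without peroxide and 0.462% and 0.442% with it. The assembly genes took 0.0914% and 0.0924% in the untreated wild-type libraries, 0.0742% and 0.0681% in the treated wild-type libraries, 0.0710% and 0.0731% in the mutant without peroxide and 0.0600% and 0.0612% with it. A share depends on the library's total of normalized counts, which was 10969093 and 11103005 in untreated wild type and 13905307 and 14222035 after H2O2. In the mutant the totals were 12032142 and 11840978 untreated and 14931323 and 14902233 treated. Summed counts of the assembly genes in wild type were 10027 and 10262 untreated and 10321 and 9680 treated. Those of the structural genes were 119565 and 121307 untreated and 154478 and 152145 treated.

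**Figure D1:**
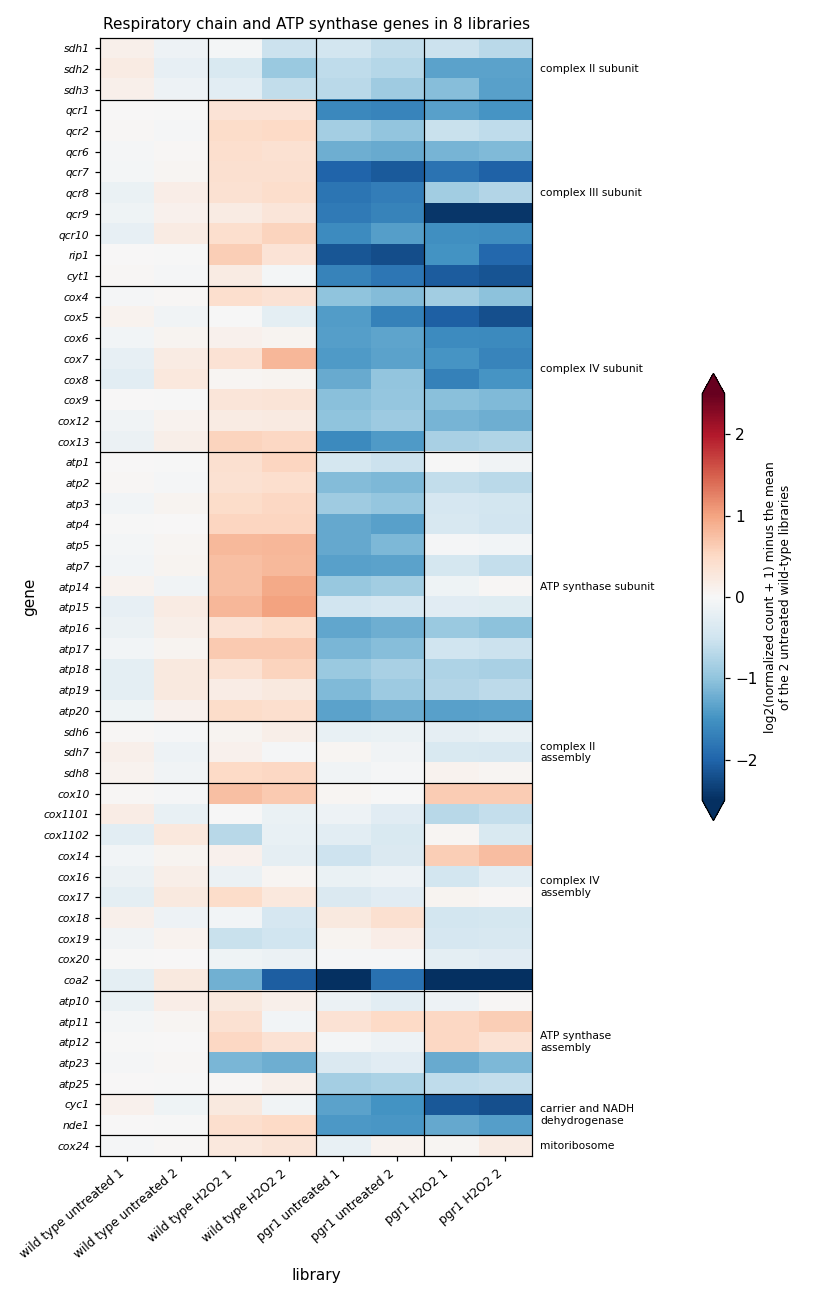
Level of each of the 54 genes (vertical axis, grouped by class) in each of the 8 libraries (horizontal axis), as log2(normalized count + 1) minus the mean of the 2 untreated wild-type libraries; colours saturate at 2.5 either way. Most structural genes are blue in the 4 mutant libraries, while most assembly genes stay pale. In the treated mutant atp1, atp5 and atp14 are near white, their means being 96.4%, 96.6% and 97.6% of untreated wild type.

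The first comparison asks what differed between the strains without added peroxide. All 33 structural genes were lower in the untreated mutant, with a median of -1.20, and for all 33 both mutant libraries lay below both wild-type libraries. The libraries of the untreated strains also separated, in either direction, for 10 of the 18 assembly genes. The share of all genes whose libraries separated was not counted. Among all 5028 genes tested, 15.8% were called lower and 22.8% higher in this comparison, and the median was 0.00. Of the 18 assembly genes 4 were lower and 1 was higher, with a median of -0.17. The electron carrier gene cyc1 and the dehydrogenase gene nde1 were also lower, and cox24 was at -0.05 ± 0.10.

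Complex III stood lowest, with a median of -1.72 over its 9 genes. The Rieske iron-sulfur protein gene rip1 had 3883 and 3789.6 normalized counts in the untreated wild-type libraries and 871 and 827 in the untreated mutant. The cytochrome c1 gene cyt1 had 5434 and 5260.1 against 1684 and 1521. The small-subunit gene qcr7 had 3556 and 3768 against 917 and 849. The untreated mutant kept 22.1% of the wild-type mean for rip1 and 24.1% for qcr7. In each of these genes the replicates lay close together and the strains far apart: rip1 differed by -2.18 ± 0.14, qcr7 by -2.05 ± 0.08 and cyt1 by -1.74 ± 0.09. The other small-subunit genes qcr8 (-1.78 ± 0.11), qcr9 (-1.72 ± 0.09), qcr10 (-1.48 ± 0.13) and qcr6 (-1.24 ± 0.06) fell as well. The core-protein genes differed from each other, qcr1 by -1.63 ± 0.07 and qcr2 by -0.92 ± 0.07, the smallest fall in the complex. Leaving qcr1 out as a processing peptidase subunit gave 32 of 32 structural genes lower with a median of -1.16.

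Both genes that act beside complex III also fell. Normalized counts of cyc1, cytochrome c, were 6429 and 5606 in the untreated wild-type libraries and 2377 and 2144 in the untreated mutant, a difference of -1.41 ± 0.12. Those of nde1, the NADH dehydrogenase gene, were 8082 and 8044 against 2987 and 2949, a difference of -1.44 ± 0.07. In both genes the libraries of the strains did not overlap.

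The 8 complex IV genes had a median of -1.24, from -1.54 to -0.95. The lowest was cox5 at -1.54 ± 0.12, with 3062 and 2727 normalized counts in the untreated wild-type libraries and 1099 and 894 in the untreated mutant. The subunit VIa gene cox13 was next at -1.50 ± 0.10, followed by cox7 (-1.37 ± 0.20), cox6 (-1.35 ± 0.07), cox8 (-1.12 ± 0.17), cox4 (-1.05 ± 0.08) and cox12 (-0.95 ± 0.08), with cox9 between cox4 and cox12. The differences between neighbours in this order were not tested.

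The 13 ATP synthase genes had a median of -1.10, from -1.35 to -0.44. The alpha subunit gene atp1 fell by 0.49 ± 0.07 on the log2 scale, with 9508 and 9481 normalized counts in the untreated wild-type libraries and 6954 and 6581 in the untreated mutant. Its partner in the catalytic head, the beta subunit gene atp2, had 20051 and 19053 against 9266 and 9007 and fell by 1.10 ± 0.07. The epsilon subunit gene atp15 had 1466 and 1974 against 1226 and 1278 and showed the smallest change, -0.44 ± 0.13, with 1 wild-type library close to the mutant ones. The other head and stalk genes, atp3 (gamma, -0.93 ± 0.07), atp16 (delta, -1.26 ± 0.10), atp5 (-1.20 ± 0.07), atp7 (-1.35 ± 0.08), atp4 (-1.32 ± 0.06) and atp14 (-0.91 ± 0.10), lay between -0.91 and -1.35. The small membrane-part genes atp17, atp18, atp19 and atp20 lay between -0.86 for atp18 and -1.28 for atp20.

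Complex II moved least among the structural classes, with a median of -0.68. The iron-sulfur subunit gene sdh2 had 3918 and 2964 normalized counts in the untreated wild-type libraries and 2182 and 2081 in the untreated mutant. The flavoprotein gene sdh1 had 8394 and 7122 against 5645 and 5038, and the cytochrome b anchor gene sdh3 had 3112 and 2603 against 1788 and 1547. In all 3 genes the second library was the lower of the pair in all 4 groups, and it was the higher one for fip1. The untreated strains did not overlap. Leaving out the first untreated wild-type library or the second untreated mutant library ended the calls of sdh1 (-0.42 and -0.45) and sdh2 (-0.48 and -0.64), and atp15 lost its call without the second untreated wild-type library (-0.23), without either untreated mutant library or in a fit to the 4 untreated libraries alone. The other 30 structural genes were called under every alternative run, and all 33 stayed below 0.

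**Figure D2:**
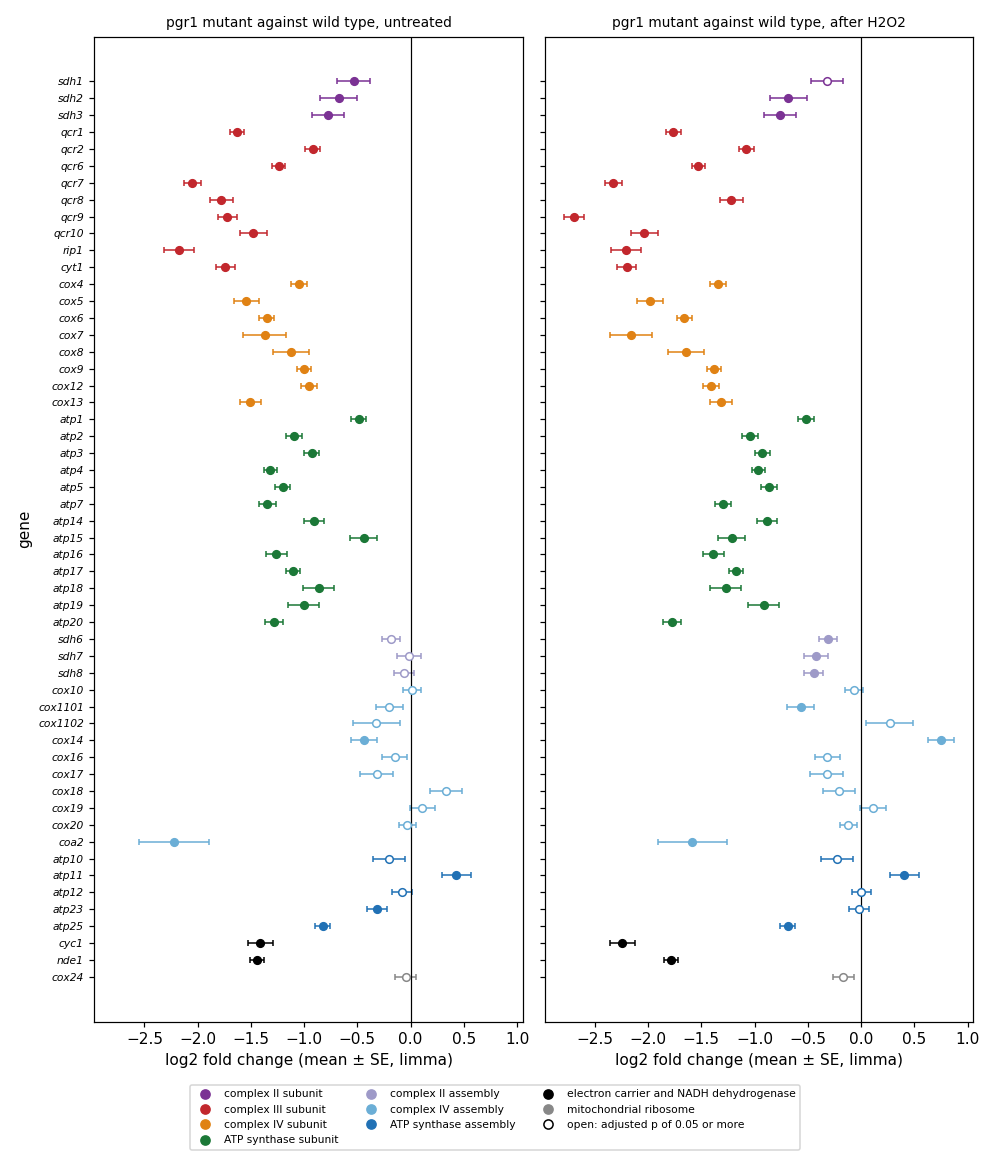
Difference between the pgr1 mutant and wild type for each gene (vertical axis) as log2 fold change with its SE (horizontal axis), untreated on the left and after H2O2 on the right; filled points were called. Structural genes (circles in purple, red, orange and green) all lie below 0, and most assembly genes (pale purple and blue) sit near 0.

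The assembly genes gave a different picture in the untreated mutant. Of the complex II factors, sdh6, sdh7 and sdh8 lay between -0.18 and -0.02 and none was called. Of the 10 complex IV factors, only coa2 and cox14 were called, both lower. The cytochrome oxidase assembly gene coa2 had 422 and 593 normalized counts in the untreated wild-type libraries and 82.7 and 137 in the untreated mutant, a difference of -2.22 ± 0.33. It also had the widest gap between replicates of all 54 genes, 0.86 on the log2 scale in the treated wild-type libraries, and the untreated strains did not overlap. The cox14 call (-0.44 ± 0.12) was lost without the second untreated wild-type library (-0.37) or the first untreated mutant library (-0.35). The haem A synthesis gene cox10, at 440.4 and 419 against 444 and 424, differed by 0.01 ± 0.08, and the other uncalled factors cox1101, cox1102, cox16, cox17, cox18, cox19 and cox20 lay between -0.32 and 0.33. The genes cox1101 and cox1102 share 98.57% of their 31-base stretches, so their separate values are uncertain.

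Of the ATP synthase factors, atp25 had 1339 and 1334 normalized counts in the untreated wild-type libraries and 741 and 767 in the untreated mutant, a difference of -0.83 ± 0.07. The protease gene atp23, whose product in budding yeast processes an ATP synthase subunit, fell by 0.31 ± 0.09 and lost its call when any of the 4 untreated libraries was left out, at -0.28 to -0.35. The chaperone gene atp11, whose product guards the free beta subunit, was the assembly gene that rose, by 0.43 ± 0.14. Its call was lost when any of 6 libraries was left out, both untreated wild-type and all 4 mutant libraries, which left 0 assembly genes higher. The chaperone gene atp12, which serves the alpha subunit, was at -0.08 ± 0.09 and atp10 at -0.20 ± 0.15. Without the first untreated mutant library 2 assembly genes were called lower.

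Opposite-strand genes may touch part of these values, because the strand setting of the counting is not given in the sources used here. In the reference annotation, 8 of the 54 genes have over 50% of their exons opposite a coding gene: rip1, qcr9, cox8, atp1, sdh7, atp10, atp12 and atp25. The exons of rip1 lie wholly opposite ppa2, a phosphatase gene, which was at 0.19 ± 0.07 in the untreated mutant while rip1 was at -2.18. Over 50% of the exons of atp25 lie opposite dbp10, which was itself at -0.39 ± 0.08. Without these 8 genes and the cox11 copies, 29 of 29 structural genes were lower, with the same median of -1.20, and of 12 assembly genes 3 were lower and 1 higher, with a median of -0.11. Counting non-coding genes too, 28 of the 54 genes have over 50% of their exons opposite another gene. Apart from the cox11 copies, those opposite only non-coding genes stayed in these counts, and the part of the non-coding genes was not tested.

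The promoters were searched for CCAAT, the core letters recognised by the CCAAT-binding factor, because that factor is known from fission yeast to act on genes of iron-using and respiratory proteins and because the structural genes moved together. The search took the letters CCAAT on both strands of the 250 bases before each annotated transcript start in the RefSeq assembly ASM294v3, which is not the build ASM294v2 that the submitters name. At least 1 match was present for 19 of 33 structural genes (57.6%), 7 of 18 assembly genes (38.9%) and 1804 of 5096 windows of coding nuclear genes (35.4%). At least 2 matches were present for 5 structural genes (15.2%), 4 assembly genes (22.2%) and 385 of the 5096 windows (7.55%). The 4 assembly genes include both cox11 copies. Matches stood before 3 of 3 complex II genes, 7 of 9 complex III genes, 3 of 8 complex IV genes and 6 of 13 ATP synthase genes. The windows of rip1, qcr9 and nde1, which differed by -2.18, -1.72 and -1.44, held none, and that of coa2 held 3. For coa2, cox8, cox1101 and cox1102 the annotated start is the coding start, so their windows may not be placed like the others. The last 120 bases before the start are shown for the lowest structural gene of each complex among those with a match there and no other coding gene in the window, and for cox10, the assembly gene without a match whose level changed least. They were chosen after the search, capitals mark CCAAT or its reverse complement ATTGG, and letters run 5′ to 3′ towards the gene.
sdh2, I:1895311-1895430, forward strand: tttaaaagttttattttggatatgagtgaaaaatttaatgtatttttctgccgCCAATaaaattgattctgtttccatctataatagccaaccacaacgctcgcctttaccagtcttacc
cyt1, II:2073116-2073235, forward strand: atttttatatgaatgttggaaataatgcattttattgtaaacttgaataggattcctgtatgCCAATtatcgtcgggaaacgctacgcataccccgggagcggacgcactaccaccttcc
cox5, III:1357674-1357793, forward strand: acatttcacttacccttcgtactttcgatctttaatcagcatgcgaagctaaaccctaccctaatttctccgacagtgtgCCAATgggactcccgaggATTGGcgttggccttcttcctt
atp20, I:691351-691470, forward strand: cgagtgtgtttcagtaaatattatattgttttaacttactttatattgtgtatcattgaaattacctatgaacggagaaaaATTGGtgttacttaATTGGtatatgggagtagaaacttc
cox10, II:2502663-2502782, reverse strand: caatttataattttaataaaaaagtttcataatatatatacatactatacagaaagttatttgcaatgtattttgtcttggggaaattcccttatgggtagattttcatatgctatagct
The strain differences of these genes when untreated were -0.68 for sdh2, -1.74 for cyt1, -1.54 for cox5, -1.28 for atp20 and 0.01 for cox10. The nearest base of the match lies 63 bases before the start in sdh2 and 54 in cyt1, and the pairs lie at 18 and 36 in cox5 and 21 and 35 in atp20. The windows show where these letters occur and nothing about binding.

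The genes of the factor itself were also measured. The genes php2, php3, php4 and php5 encode its DNA-binding subunits and the repressor subunit Php4. In the untreated mutant 2 of them were higher and none lower, against 22.8% and 15.8% of all genes. There php3 was at -0.02 ± 0.10 and php5 at -0.18 ± 0.10. After H2O2 1 was higher and 3 were lower, against 26.5% and 22.4% of all genes. The gene php4 had 819 and 1042 normalized counts in the untreated wild-type libraries, 1179 and 1225 in the untreated mutant, 2936 and 3332 in the treated wild-type libraries and 2206 and 2202 in the treated mutant. The gene php4 was thus 0.38 ± 0.11 higher in the mutant when untreated and 0.50 ± 0.11 lower after H2O2 on the log2 scale. The gene php2 was 0.79 ± 0.11 and 0.80 ± 0.11 higher.

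Other genes of the pathway were called in both directions, to be read against the 22.8% higher and 15.8% lower among all genes. Of 22 other assembly factors of respiratory complexes, 4 were higher and 4 lower in the untreated mutant, with a median of -0.12. The highest was coa3 at 1.01 ± 0.30 and the lowest cbp7 at -0.52 ± 0.12. Counts of coa3 were low, and its wild-type replicates lay far apart: 42.9 and 88.4 untreated, against 122 and 128 in the untreated mutant. Of 15 genes for ubiquinone synthesis and other electron donors, 5 were higher and 1 lower, from 0.63 ± 0.14 for the glycerol-3-phosphate dehydrogenase gene gut2 to -0.39 ± 0.10 for the dihydroorotate dehydrogenase gene ura3. Of 15 genes of the tricarboxylic acid cycle and pyruvate dehydrogenase, 2 were higher and 5 lower, with a median of -0.24. Among these the succinyltransferase gene kgd2 was at -0.83 ± 0.14 and the isocitrate dehydrogenase gene idh2 at 0.58 ± 0.08. Of 11 identifiers of the mitochondrial genome 2 passed the filter, none exceeding 38.2 normalized counts in any library, and the libraries were selected for poly(A). The identifier SPMIT.01 was called lower in the mutant, by -2.37 ± 0.69 untreated and -2.51 ± 0.69 after H2O2, on 11.4 and 10.03 normalized counts in wild type against 1.80 and 0.838 in the mutant when untreated. The other, SPMIT.11, was called in neither. After H2O2 the other assembly factors had 5 higher and 7 lower in the mutant, the ubiquinone and donor genes 2 and 3, and the cycle genes 2 and 6. Among all genes 26.5% were called higher and 22.4% lower in that comparison.

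The second comparison asks the same after H2O2. Here 32 of 33 structural genes were lower in the mutant, with a median of -1.32, against 22.4% of all genes called lower and 26.5% called higher. The exception was sdh1 at -0.32 ± 0.15, whose libraries still did not overlap, and which was called in 3 of 18 alternatives, 1 of them without the second treated wild-type library (-0.57). Complex III had a median of -2.04, complex IV -1.53, ATP synthase -1.04 and complex II -0.68. Normalized counts of qcr9 were 2478 and 2647 in the treated wild-type libraries and 395 and 394 in the treated mutant, a difference of -2.70 ± 0.09 and the lowest of the set. Those of cyc1 were 7157 and 5685 against 1389 and 1309, a difference of -2.24 ± 0.12, and nde1 was at -1.79 ± 0.07. The smallest called falls were atp1 at -0.52 ± 0.07 and sdh2 at -0.68 ± 0.17, and sdh2 lost its call without the first treated wild-type or the second treated mutant library.

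Of the 18 assembly genes 6 were lower and 2 higher after H2O2, with a median of -0.21. The 3 complex II factors were all lower, between -0.31 for sdh6 and -0.45 for sdh8. Of 18 alternatives, sdh6 was called in 14, sdh7 in 15 and sdh8 in all. The gene coa2 was at -1.58 ± 0.33, atp25 at -0.69 ± 0.07 and cox1101 at -0.57 ± 0.13. The 2 higher genes were cox14 at 0.75 ± 0.12 and atp11 at 0.41 ± 0.14, and without the second treated wild-type library or either treated mutant library atp11 lost its call. Without the 8 genes opposite coding genes and the cox11 copies 3 of 12 assembly genes were lower.

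**Figure D3:**
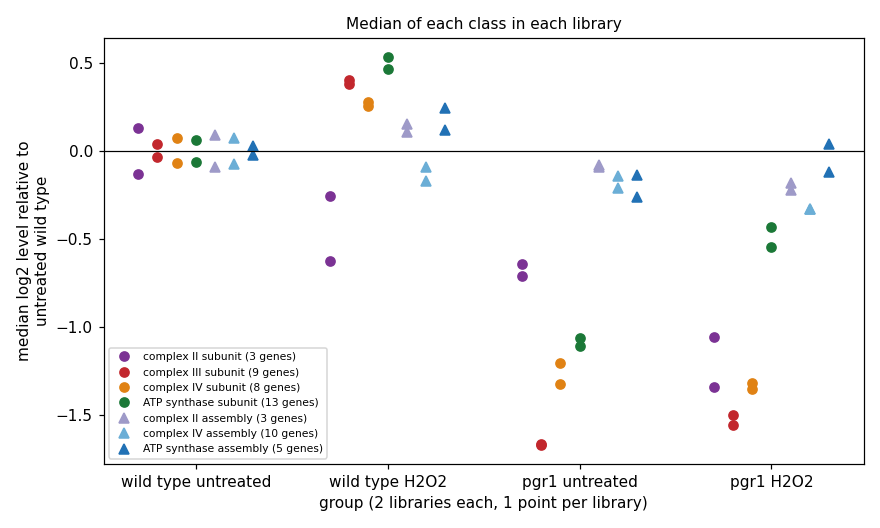
Median level of the genes of each class relative to untreated wild type (vertical axis, log2) in each library, by group (horizontal axis); circles are structural classes and triangles assembly classes. In both mutant groups the structural medians lie between -0.43 and -1.67, and the assembly medians between -0.33 and 0.04.

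The order of the 4 group means was simple for the structural genes and mixed for the assembly genes. Both wild-type means exceeded both mutant means in all 33 structural genes. The order from treated wild type through untreated wild type and treated mutant to untreated mutant held for 20 of them, 14 with every group apart from the next. The order with the mutant groups swapped, so that the treated mutant was lowest, held for 9, 6 of them with every group apart. In the other 4, sdh1, sdh2, sdh3 and cox5, untreated wild type was highest and the treated mutant lowest, with the groups all apart in 1. The 18 assembly genes fell into 12 different orders, no order holding more than 3 of them. How often these orders, or groups all apart, occur among all genes was not counted.

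The third question is how peroxide changed these genes within each strain, and here the answer depends on scaling. Under the authors' size factors 25 of 33 structural genes were higher after H2O2 in wild type and 2 were lower, with a median of 0.40, against 37.7% of all genes called higher and 34.6% called lower. Scaling to the total of reads moved the median of all genes to -0.35 and left 6 structural genes higher and 6 lower, while relative to that median the structural genes stayed at 0.41. Under quantile normalization 7 were higher and 6 lower and the structural median was 0.03, which lay 0.13 above that of all genes, against 0.10 for the assembly genes, so the classes lay close together under that scaling. Of the 18 assembly genes 3 were higher and 3 lower, with a median of -0.01, and 1 and 12 under scaling to total reads.

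By class, under the authors' scaling, the ATP synthase genes had the highest median change in wild type: 12 of 13 were higher, with a median of 0.49. The oligomycin-sensitivity subunit gene atp5 had 3298 and 3568 normalized counts untreated and 5993 and 6080.1 after H2O2, a rise of 0.82 ± 0.07. The epsilon gene atp15 had 1466 and 1974 untreated and 3033 and 3428 after H2O2, a rise of 0.92 ± 0.13. Of the complex III genes 8 of 9 were higher, with a median of 0.40, and cyt1 was at 0.08 ± 0.09; of the complex IV genes 5 of 8 were higher, with a median of 0.26. Under quantile normalization qcr1, qcr6, qcr7, qcr8, qcr9, cox12, atp2 and atp16 came out below 0. Scaled to total reads, qcr1, qcr9, cox9 and cox12 also did, through the shift of -0.35 that all genes share.

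Complex II went the other way. Normalized counts of sdh2 fell from 3918 and 2964 in the untreated wild-type libraries to 2617 and 1792 after H2O2, a change of -0.65 ± 0.17. Those of sdh3 went from 3112 and 2603 to 2382 and 1847, a change of -0.44 ± 0.15, and sdh1 was at -0.29 ± 0.15. Treated and untreated libraries of sdh1 overlapped and those of sdh2 and sdh3 did not. The 2 lower calls became 0 without the second treated wild-type library, where sdh2 was at -0.38 and sdh3 at -0.26, and 1 without the first untreated one. In the same strain the assembly genes coa2 (-1.63 ± 0.33), atp23 (-1.18 ± 0.09) and cox19 (-0.52 ± 0.12) fell, and cox10 (0.70 ± 0.08), sdh8 (0.51 ± 0.09) and atp12 (0.44 ± 0.09) rose, sdh8 and atp12 being uncalled when scaled to total reads.

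In the mutant 14 of 33 structural genes were higher after H2O2 and 8 lower, with a median of 0.12, against 35.7% of all genes called higher and 32.5% called lower. Scaled to total reads the counts were 8 higher and 16 lower with a median of -0.20, against an all-gene median of -0.31. Through that common shift qcr1, qcr2 and atp16, called higher, came out below 0, and qcr1 did so under quantile normalization too. Of the ATP synthase genes 9 of 13 were higher and the lowest was atp20 at -0.065 ± 0.08, not called. The highest was atp5 at 1.15 ± 0.07, whose counts rose from 1412 and 1573 to 3363 and 3269. Of the complex IV genes 4 were lower (cox5, cox6, cox8 and cox12) and only cox13 was higher, at 0.72 ± 0.10. In complex III qcr1, qcr2, qcr8 and rip1 were higher, and qcr9 (-0.72 ± 0.09) and cyt1 (-0.38 ± 0.09) lower. The complex II genes sdh2 and sdh3 fell by 0.66 ± 0.17 and 0.43 ± 0.15, and the differences from their changes in wild type were -0.00 ± 0.24 and 0.01 ± 0.21. Of the assembly genes 4 were higher (cox10, cox14, atp12 and atp25) and 7 lower. Leaving out either treated mutant library or the second untreated one left 4 or 5 structural genes lower, and leaving out either treated library or the first untreated one left 4 assembly genes lower.

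**Figure D4:**
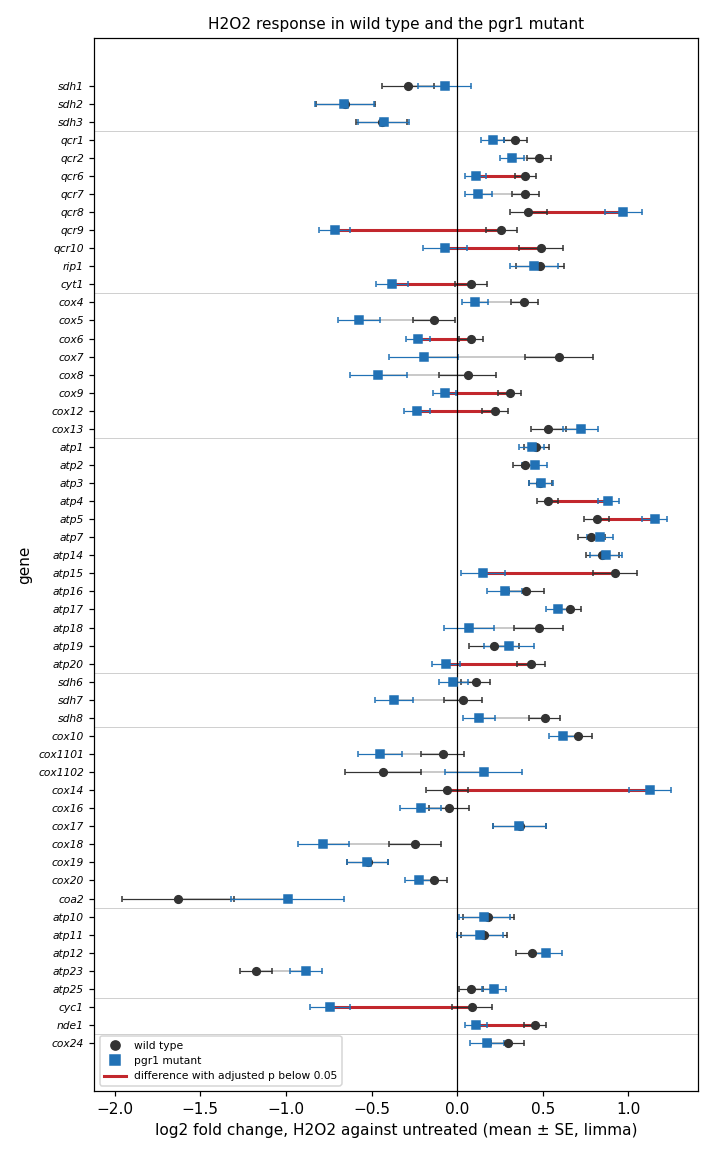
Change after H2O2 for each gene (vertical axis) in wild type (circles) and the pgr1 mutant (squares) as log2 fold change with its SE (horizontal axis), with a red line where the difference between the strains was called. The largest gaps are those of cox14 at 1.19 to the right and qcr9 at -0.98 to the left.

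The last comparison tests whether the change after H2O2 differed between the strains. It was called for 12 of 33 structural genes, 3 with a higher and 9 with a lower response in the mutant, against 12.0% of all genes called higher and 15.3% called lower. Of the 18 assembly genes 1 was called higher and 0 lower by limma, edgeR and DESeq2 alike, with 3 lower at an unadjusted limma p below 0.05. Without the first untreated wild-type library 3 assembly genes were called lower. Both cyc1 and nde1 were called lower. The structural count rests on few libraries: the 9 lower became 5 or 4 without the first or second untreated mutant library, and 3 or 1 without the first or second treated one, and 2 under quantile normalization, and the 3 higher became 1 without any library other than the untreated wild-type ones and the second untreated mutant one.

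The differences that were called under every alternative were those of qcr9, cyc1 and cox14. Counts of qcr9 went from 1975 and 2319 to 2478 and 2647 in wild type but from 624 and 675 to 395 and 394 in the mutant, a difference between the responses of -0.98 ± 0.13. Over 50% of the exons of qcr9 lie opposite the replication gene mcm3, for which the difference was -0.17 ± 0.09. Counts of cyc1 were 6429 and 5606 untreated and 7157 and 5685 treated in wild type, against 2377 and 2144 untreated and 1389 and 1309 treated in the mutant, a difference of -0.83 ± 0.16. The treated and untreated wild-type libraries of cyc1 overlapped, and those of the mutant did not.

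The gene cox14, whose product in budding yeast helps to adjust the synthesis of a mitochondrial subunit of complex IV, was the assembly gene whose response differed. Its counts were 737 and 806 in the untreated wild-type libraries, 831 and 658 in the treated wild-type libraries, 538 and 603 in the mutant without peroxide and 1179.6 and 1315 with it. The treated mutant libraries lay above the other 6 and the untreated mutant libraries below them. The response differed by 1.19 ± 0.17 between the strains (limma, Benjamini-Hochberg adjusted p = 0.00145). The reference annotation places 82.7% of its exons opposite non-coding genes.

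Several smaller differences split complex III and ATP synthase from within. In complex III the response of qcr8 was higher in the mutant by 0.56 ± 0.15, with counts from 899.9 and 967 to 1741 and 1923, while those of qcr10, cyt1 and qcr6 were lower by -0.56 ± 0.18, -0.46 ± 0.13 and -0.29 ± 0.09. In ATP synthase atp4 and atp5 had higher responses by 0.35 ± 0.09 and 0.34 ± 0.10, while atp15 and atp20 had lower ones by -0.77 ± 0.18 and -0.50 ± 0.12. The counts of atp15 stayed at 1226 and 1278 untreated and 1401 and 1378 treated in the mutant, where those of wild type rose to 3033 and 3428. In complex IV cox12, cox9 and cox6 had lower responses, by -0.46 ± 0.11, -0.38 ± 0.10 and -0.31 ± 0.10. Of the 15 called genes 12 lost the call under at least 1 of 17 alternatives, qcr10 and cox6 most often, with 6 and 5 of 17 keeping it.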

How the data were processed

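Per the labels' protocols, RNA was taken with hot phenol and poly(A) libraries were made with a stranded TruSeq kit. The deposited values are a signal, gene counts that the authors divided by DESeq2 size factors, and the submitters' processing notes name FastQC, Trimmomatic, Salmon, DESeq2 and the build ASM294v2. The strand setting of the counting is not given in the sources used here. Dividing by the worth of 1 read returned whole reads (tolerance 0.05) for 99.98% to 100% of the values of each library. One line naming no gene was left out.

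Gene names came from the RefSeq table of ASM294v3, which matched 5131 of 5165 identifiers. A gene had to reach 10 in 2 or more libraries, which kept 5028 and dropped 137. The main test was limma 3.58.1 (R 4.3.3) on log2(value + 1), its prior variance following a trend, 1 mean per group, 4 residual degrees of freedom, two-sided, with Benjamini-Hochberg adjustment over all genes tested. A fold change on this scale understates that of low genes. On recovered reads, edgeR 4.0.16 with its quasi-likelihood test and DESeq2 1.42.0 called 2008 and 1812 genes between the untreated strains, 2408 and 2217 between the treated strains, 3649 and 3470 for H2O2 in wild type, 3443 and 3226 for H2O2 in the mutant, and 1385 and 1212 for the difference of the responses. The script was tested on simulated data. Tables and figures used Python 3.11.15, numpy 2.4.6, pandas 2.3.3 and matplotlib 3.10.9.

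Every gene of the set was accounted for by class, and the genes named are the highest and lowest of each class in each comparison, rip1, cyt1, cyc1, nde1, coa2, pgr1 and the highest and lowest of each pathway list. Further genes were named after their values were seen. The set and the lists were chosen with earlier results of these data known. Alternatives were other pseudocounts, filters, scalings, tools, a replicate block and leaving out each library.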

Additional observations from a re-analysis of the deposited data

Results flagged for a closer look

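For 15 of the 54 genes and for php4 the change after H2O2 differed between the strains, as tested by the interaction term of the limma fit. The value is the response in the mutant minus that in wild type on the log2 scale. In complex III it was -0.29 for qcr6, 0.56 for qcr8, -0.98 for qcr9, -0.56 for qcr10 and -0.46 for cyt1. In complex IV it was -0.31 for cox6, -0.38 for cox9 and -0.46 for cox12, and 1.19 for the assembly gene cox14. In ATP synthase it was 0.35 for atp4, 0.34 for atp5, -0.77 for atp15 and -0.50 for atp20. It was -0.83 for cyc1, -0.34 for nde1 and -0.88 for php4. Of the 15 genes, qcr9, cox14 and cyc1 were called under all 17 alternatives run for each gene.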

How the results depend on the processing

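The strain differences held their direction in every alternative run for all 33 structural genes in both conditions. The H2O2 responses depended on scaling. Scaling to total reads, leaving out genes opposite coding genes with the cox11 copies, and leaving out qcr1 were chosen after seeing the data. With 2 libraries per group the spread is poorly known, and the lowest gene had 42 reads in a library. Scaling to total reads shifts all genes of a comparison nearly alike, so a change of sign under it follows from that shift. Leaving out genes or libraries leaves fewer of them. For the other changes below the cause was not tested.

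Under quantile normalization, H2O2 in wild type gave 7 structural genes higher and 6 lower, with a median of 0.030. In the mutant it gave 9 structural genes higher, 8 assembly genes higher and 3 lower, with an assembly median of 0.17. Between untreated strains 7 assembly genes were lower, with medians of -1.39 (structural) and -0.27 (assembly), and between treated strains 1 assembly gene was higher, with medians of -1.20 and -0.32. For the difference of responses 5 structural and 2 assembly genes were higher and 2 structural genes lower, with medians of 0.10 and 0.089.

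Scaled to total reads, H2O2 in wild type gave 6 structural genes higher and 6 lower and 1 assembly gene higher and 12 lower, with medians of 0.055 and -0.36. In the mutant 8 structural and 2 assembly genes were higher and 16 structural genes lower, with medians of -0.20 and -0.27. Between untreated strains 0 assembly genes were higher, with medians of -1.32 and -0.28, and between treated strains 1 was higher, with medians of -1.40 and -0.30.

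Without genes opposite coding genes and the cox11 copies, the assembly medians were -0.053 for H2O2 in wild type, -0.12 in the mutant with 2 genes higher, -0.11 between untreated strains and -0.16 between treated strains with 3 genes lower. With no trend in the prior variance, 0 assembly genes were higher between untreated strains and 1 between treated strains, and the difference of responses had 1 structural gene higher, 5 structural genes lower and 1 assembly gene lower. With only the 4 libraries compared, 1 assembly gene was higher between treated strains.

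Some genes changed direction. For H2O2 in wild type under quantile normalization qcr1 was at -0.019, qcr6 -0.094, qcr7 -0.072, qcr8 -0.047, qcr9 -0.050, cyt1 -0.36, cox6 -0.24, cox12 -0.0042, atp2 -0.0091, atp16 -0.025 and cyc1 -0.36. Scaled to total reads qcr1 was at -0.0093, qcr9 -0.091, cyt1 -0.27, cox6 -0.27, cox9 -0.042, cox12 -0.13, sdh6 -0.24, sdh7 -0.31, atp25 -0.27 and cox24 -0.054. For H2O2 in the mutant under quantile normalization qcr1 was at -0.17, sdh6 0.21 and nde1 -0.24, and scaled to total reads qcr1 was at -0.11, qcr2 -0.0010, qcr6 -0.21, qcr7 -0.20, cox4 -0.22, atp16 -0.043, atp25 -0.10 and nde1 -0.21. The difference of responses of cox6 was 0.048 under quantile normalization.

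Leaving out 1 library at a time, H2O2 in wild type gave 20 to 26 structural genes higher and 0 to 3 lower and 3 to 4 assembly genes higher and 3 to 4 lower, with medians of 0.35 to 0.46 and -0.051 to 0.051. In the mutant the structural counts were 11 to 15 higher and 4 to 8 lower and the assembly counts 3 to 5 and 4 to 7, with medians of 0.12 to 0.19 and -0.030 to 0.053. Between untreated strains 0 structural genes were higher and 30 to 33 lower and 0 to 1 assembly genes higher and 2 to 4 lower, with medians of -1.28 to -1.12 and -0.17 to -0.075. Between treated strains 31 to 33 structural genes were lower and 1 to 2 assembly genes higher and 4 to 8 lower, with medians of -1.37 to -1.29 and -0.26 to -0.13. For the difference of responses 1 to 3 structural genes were higher and 1 to 10 lower and 1 assembly gene higher and 0 to 3 lower, with medians of -0.20 to -0.075 and -0.090 to 0.055.

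The replicate numbers are shared by the groups, but the deviations of same-numbered libraries correlated at -0.143 to 0.367 across pairs of groups, which is over 0.1 in 3 of the 6 pairs and not in the others, so the samples are treated as sharing only a number. In all 4 groups replicate 2 was lower than replicate 1 for sdh1, sdh2 and sdh3 and higher for fip1. The block brought 12 of 270 gene results past the threshold and took none below it, among them sdh1 after H2O2 in wild type (-0.29) and between treated strains (-0.32). With the replicate block, 2 assembly genes had a lower response in the mutant.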
